A study of Mus musculus with 9 samples.

Results

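The genes described here encode 10 subunits of the Polycomb repressive complexes: Ezh1, Ezh2, Eed, Suz12, Jarid2 and Mtf2 of PRC2, and Rnf2, Bmi1, Cbx2 and Cbx7 of PRC1. They were chosen by name, with earlier results of these data known. Every probe set that the array's annotation paired with one of these symbols alone was taken. This gave 34 probe sets for 10 of 18193 genes, out of 34945 probe sets paired with a single symbol. Their log2 GCRMA intensities were compared between embryoid bodies (5 arrays, labelled 1, 3, 5, 7 and 9) and undifferentiated ESCs (4 arrays, labelled 2, 6, 8 and 10). In embryoid bodies Eed, Suz12, Jarid2, Mtf2 and Cbx7 fell and Bmi1 and Cbx2 rose, each by more than the spread between arrays, while Ezh2 did not pass the test.

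The study describes its ESCs as E14, a single line of mouse ESCs, and does not name the line of the embryoid bodies. Both groups were hybridized to Affymetrix mouse expression arrays, with no treatment and no genetic change given in the labels. Embryoid bodies are aggregates in which ESCs differentiate into mixed cell types, and their age and culture are not given in the sources used here. The 4 ESC samples were described as biological replicates, and nothing says whether the embryoid bodies came from separate cultures, so P values for them measure only the spread between these samples. On every array between 49.1% and 49.9% of the 45037 probe sets lay under log2 4, called here the floor of the scale, and arrays of one group correlated at Pearson r = 0.995 or above across probe sets, against 0.968 to 0.977 for one of each group.

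The labels were borne out by marker genes. Of 8 genes of pluripotent cells, 7 fell in embryoid bodies, among them Zfp42 by 6.47 on the log2 scale and Pou5f1 by 3.17, and the summed intensity of the 8 ran from 3807 to 7275 in embryoid bodies and from 36786 to 39437 in ESCs. The exception was Esrrb, at -0.14, whose probe set 1436926_at differed by -3.85. Of 9 genes of differentiated lineages 6 rose, among them the cardiac troponin Tnnt2, and summed intensities ran from 17796 to 21045 in embryoid bodies and from 1936 to 6877 in ESCs. Of 8 genes of fibroblasts and mesenchyme 5 rose, with sums of 10048 to 10697 in embryoid bodies against 402 to 911 in ESCs, while Thy1 and S100a4 stayed under the floor. ESC arrays 8 and 10 stood apart from ESC arrays 2 and 6 in several of these markers: Col1a1 read 9.03 and 9.02 on arrays 8 and 10 against 6.98 and 6.78 on arrays 2 and 6, Col3a1 read 6.28 and 5.51 against 3.12 and 3.65, and the smooth muscle actin Acta2 read 12.64 and 12.49 against 10.81 and 10.49. Embryoid body arrays 7 and 9 also stood apart from arrays 1, 3 and 5 in some markers. Pou5f1 read 8.53 and 8.17 on arrays 7 and 9 against 9.54, 9.71 and 9.36, and Col1a2 read 8.12 and 8.43 against 9.46, 9.14 and 9.61. Twist1 went the other way, at 9.17 and 9.05 against 8.36, 8.77 and 8.46. The members are therefore also given for arrays numbered 1 to 6 alone, which leave out ESC arrays 8 and 10 and embryoid body arrays 7 and 9. The 3' minus 5' difference of the Gapdh control probe sets ran from -0.02 to 0.03 in embryoid bodies and from -0.04 to 0.05 in ESCs, and that of Actb from 0.55 to 0.72 in embryoid bodies and from 0.63 to 0.71 in ESCs, all on the log2 scale. In bulk RNA a change in the share of a cell type and a change of RNA per cell cannot be told apart, which holds for every difference below.

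Polycomb complexes keep developmental genes silent by modifying histones. PRC2 methylates histone H3 through Ezh2 or its paralog Ezh1, held on the scaffold Suz12 together with Eed, which recognizes the methyl mark, and is guided by cofactors such as Jarid2 and Mtf2. Canonical PRC1 ubiquitylates histone H2A through Rnf2 (Ring1B), paired with a Pcgf protein such as Bmi1, and reads the PRC2 mark through the chromodomain of a Cbx protein. In mouse ESCs Cbx7 is known as the main Cbx protein of PRC1, and Cbx2 and others are known to take its place during differentiation.

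With each gene represented by whichever probe set averaged highest across the 9 arrays, 3 of the 10 genes were higher in embryoid bodies at an adjusted P under 0.05 (limma, Benjamini-Hochberg over all 45037 probe sets) and 5 were lower. Over all 18193 genes the same rule called 15.7% higher and 14.7% lower. All embryoid body arrays lay above all ESC arrays for 3 member genes and below them for 5, against 15.6% and 19.4% of all genes. The median difference was -0.63 for the members and -0.04 for all genes. Because the members were chosen with earlier results of these data known, these comparisons describe them and do not test them as a set. Of the 34 probe sets, 4 were called higher and 13 lower (10.5% and 10.6% of all probe sets). Another 11 lay under the floor on every array and were not called, the largest difference among them being 0.114 in size.

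**Figure D1:**
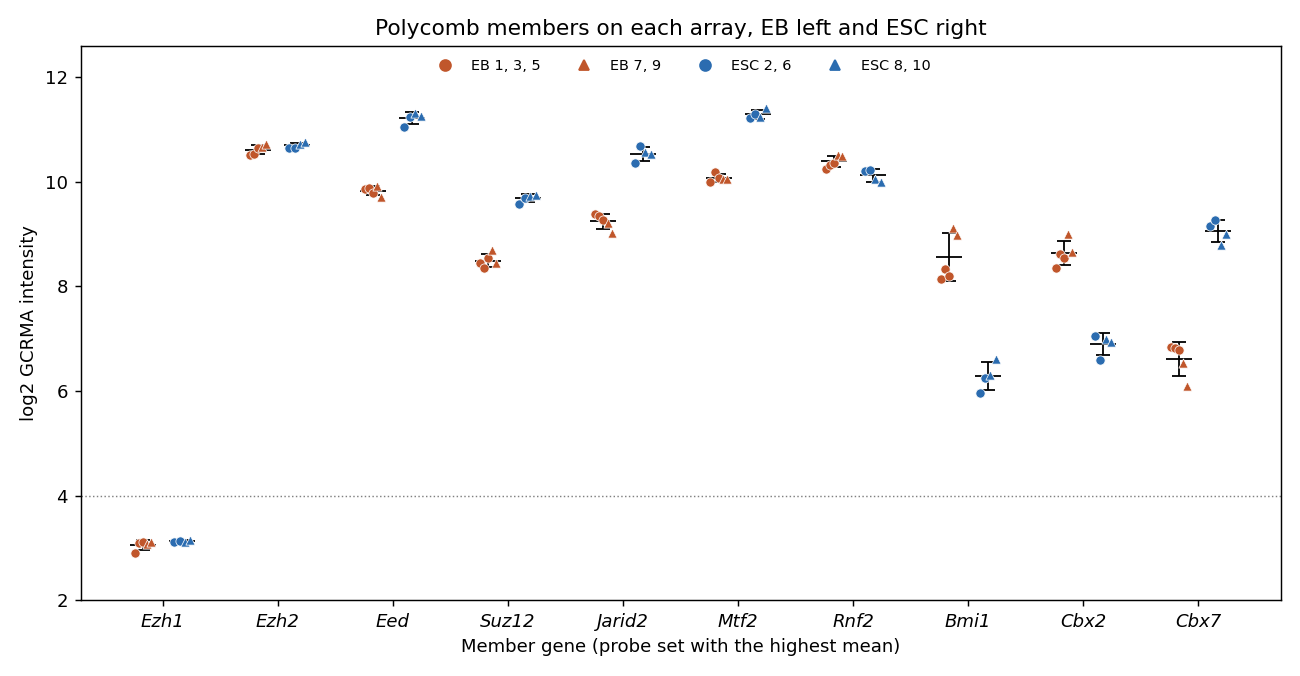
Log2 GCRMA intensity (vertical axis) of the 10 member genes on each array, embryoid bodies (EB) left and ESCs right of each gene name. Circles are arrays numbered 1 to 6 and triangles those numbered 7 to 10, black bars are mean and SD, and the dotted line is the floor of log2 4. Embryoid bodies lie below ESCs for Eed, Suz12, Jarid2, Mtf2 and Cbx7 and above them for Rnf2, Bmi1 and Cbx2, and heights cannot be compared between genes.

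The promoters of 3 genes are shown because they moved in opposite directions: Cbx7, with the largest fall among the members, Bmi1, with the largest rise, and Suz12, the fallen PRC2 scaffold whose promoter alone held an E2F word. Each is the 250 bases before the annotated start in RefSeq (GRCm38.p6), read 5' to 3' on the gene's strand, with matches to 3 motifs in capitals: an E2F word (TTTCCCGC, TTTGGCGC, TTTCGCGC or TTTGCCGC), the E box CACGTG and the CCAAT box, each on both strands.
Cbx7, chr15:79932647-79932896, minus strand: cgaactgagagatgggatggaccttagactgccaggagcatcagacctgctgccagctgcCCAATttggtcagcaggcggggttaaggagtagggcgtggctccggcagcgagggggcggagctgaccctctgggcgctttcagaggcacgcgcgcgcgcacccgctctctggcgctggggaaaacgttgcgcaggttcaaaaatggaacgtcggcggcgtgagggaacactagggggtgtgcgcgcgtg
Bmi1, chr2:18676768-18677017, plus strand: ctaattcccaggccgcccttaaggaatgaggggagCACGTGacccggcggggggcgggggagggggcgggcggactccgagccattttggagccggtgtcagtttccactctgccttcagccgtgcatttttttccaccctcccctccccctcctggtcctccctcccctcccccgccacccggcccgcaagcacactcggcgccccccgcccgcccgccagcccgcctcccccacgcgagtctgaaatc
Suz12, chr11:79992856-79993105, plus strand: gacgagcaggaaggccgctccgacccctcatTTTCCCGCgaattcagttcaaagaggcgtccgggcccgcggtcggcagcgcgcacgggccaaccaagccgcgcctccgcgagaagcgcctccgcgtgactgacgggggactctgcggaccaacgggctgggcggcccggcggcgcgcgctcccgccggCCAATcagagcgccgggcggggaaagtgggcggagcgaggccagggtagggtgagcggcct

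The Cbx7 window held 1 CCAAT box, starting 190 bases before the start of the gene, and 23 CpG dinucleotides. The Bmi1 window held 1 E box, 215 bases before the start, and 21 CpG dinucleotides. That of Suz12 had 1 E2F word at 219 bases, 1 CCAAT box at 61 bases and 37 CpG dinucleotides, a number that 97.8% of all windows fell short of. A promoter was found for 9 of the 10 members, all but Cbx2. An E2F word occurred in 1 of these 9 genes against 1.86% of 32851 windows of this length, an E box in 1 against 6.02%, and a CCAAT box in 5 against 33.8%. A gene with more than 1 window was counted if any of its windows held the match, while the percentages are per window, so the shares are not on the same basis. Ezh2 had 3 CCAAT boxes. The 11 windows of the 9 genes held 2 to 37 CpG dinucleotides, with a median of 6 over all windows, and the lowest was a second start of Mtf2. A match is a description of these letters and not of a bound site.

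The catalytic subunits of PRC2 did not pass the test. Ezh2, the H3 methyltransferase of dividing cells, has a single probe set, which read 10.51, 10.54, 10.65, 10.66 and 10.72 on embryoid body arrays 1, 3, 5, 7 and 9, against 10.65, 10.65, 10.73 and 10.76 on ESC arrays 2, 6, 8 and 10. The groups overlapped, and the difference was -0.08 on the log2 scale (95% confidence interval -0.20 to 0.04, limma adjusted P = 0.225). Ezh1, its paralog of nondividing cells, lay under the floor on all 9 arrays by each of its 4 probe sets, the brightest reading 2.90 to 3.12 in embryoid bodies and 3.12 to 3.15 in ESCs. No change of Ezh1 could be measured at this level (difference -0.07, interval -0.17 to 0.03, adjusted P = 0.206).

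Eed and Suz12 fell in embryoid bodies to less than the levels of any ESC array. Eed, the reader of the methyl mark, measured 9.86, 9.89, 9.78, 9.92 and 9.71 in embryoid bodies and 11.06, 11.25, 11.32 and 11.26 in ESCs by probe set 1448653_at. It was lower by 2.62-fold (interval 2.37 to 2.90, adjusted P = 9.0e-07), while its second probe set lay under the floor. Suz12, the scaffold, measured 8.45, 8.35, 8.55, 8.70 and 8.45 in embryoid bodies and 9.57, 9.69, 9.73 and 9.74 in ESCs by 1420021_s_at, which was lower by 2.28-fold (2.03 to 2.56, adjusted P = 4.5e-06). The spread within either group was small beside the gap for both genes, and the intervals of Eed and Suz12 lay apart from that of Ezh2.

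The 6 probe sets of Suz12 did not all give the same size of change. Besides 1420021_s_at, 1452364_at differed by -1.24, 1427253_s_at by -1.29 and 1449661_at by -0.80 on the log2 scale, each called lower. Probe set 1420022_s_at, with 5.33 to 5.91 in embryoid bodies and 5.97 to 6.29 in ESCs, was separated between the groups but was not called (-0.41, adjusted P = 0.058), and 1420020_at lay under the floor. The names ending in _s_at mark probe sets that may hybridize to more than a single transcript, and the plain 1452364_at gave a difference within the interval of 1420021_s_at.

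The cofactors Jarid2 and Mtf2 fell as well. Jarid2, a DNA-binding cofactor with an inactive demethylase fold, measured 9.38, 9.34, 9.27, 9.21 and 9.02 in embryoid bodies and 10.35, 10.68, 10.58 and 10.54 in ESCs, lower by 2.45-fold (2.13 to 2.81, adjusted P = 7.2e-06). Its 3 probe sets were all called lower, by -1.29, -1.20 and, for the plain 1450710_at, -1.71. Mtf2 (Pcl2), a Polycomb-like protein that binds CpG-rich DNA, measured 9.99, 10.19, 10.07, 10.06 and 10.06 in embryoid bodies and 11.22, 11.30, 11.24 and 11.42 in ESCs, lower by 2.33-fold (2.14 to 2.54, adjusted P = 7.0e-07). No embryoid body array reached the lowest ESC array for either gene.

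The Mtf2 probe sets split into those that changed and those that did not. The 4 brightest on average, 1418516_at, 1418515_at, 1418514_at and 1449115_at, were called lower by -1.22, -1.36, -1.45 and -1.90. Probe set 1445151_at read 5.30 to 5.47 in embryoid bodies and 5.27 to 5.73 in ESCs (difference -0.04, interval -0.26 to 0.17, adjusted P = 0.704), and 1459811_at lay under the floor.

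**Figure D2:**
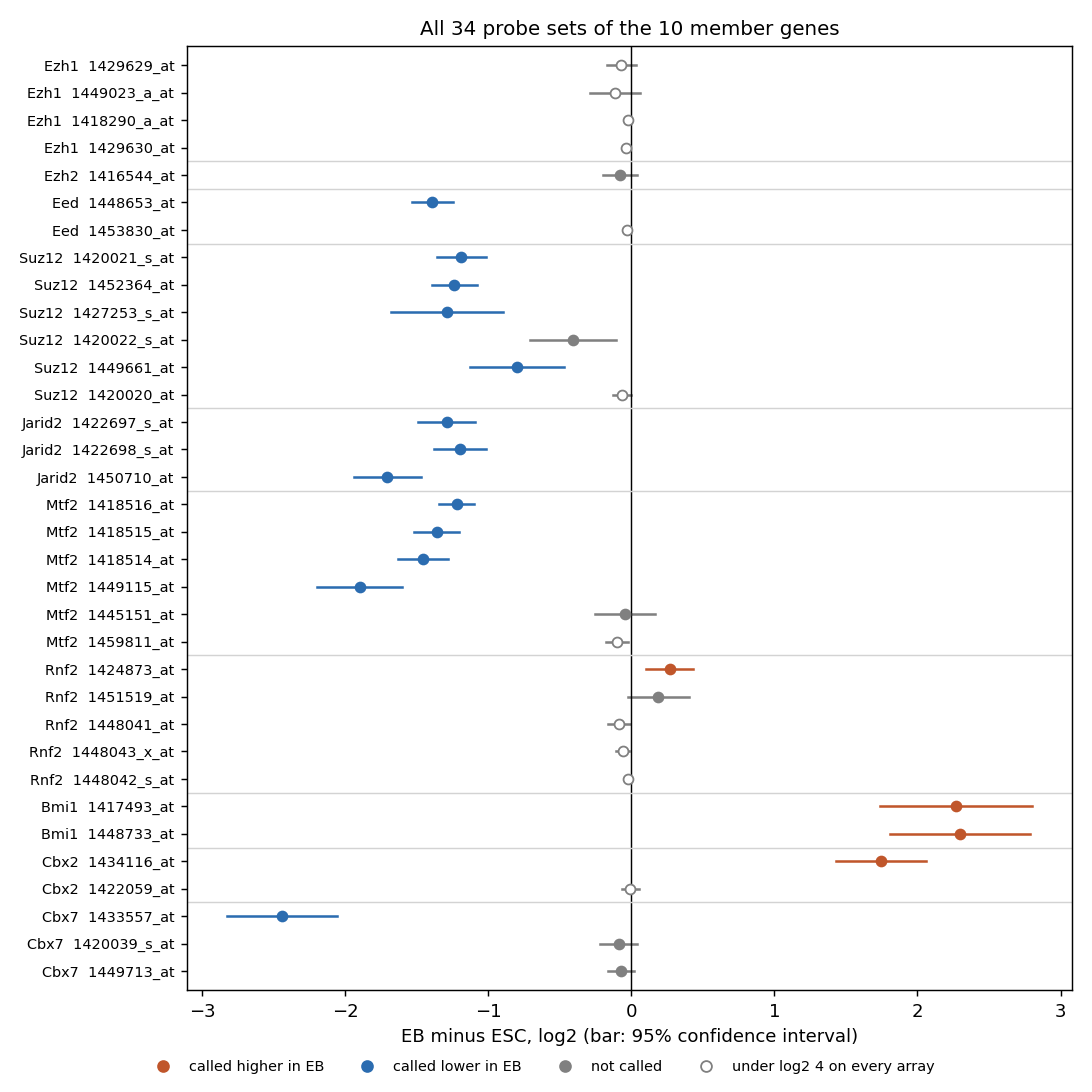
EB minus ESC difference on the log2 scale (horizontal axis) with its 95% confidence interval for each of the 34 probe sets (rows, by gene). Orange was called higher in embryoid bodies, blue lower and grey not called, and open symbols lay under log2 4 on every array. Each of Eed, Suz12, Mtf2, Rnf2, Cbx2 and Cbx7 had probe sets with and without a call, and both Bmi1 and all 3 Jarid2 probe sets were called.

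Among the PRC1 members the Cbx genes moved in opposite directions. Cbx7 measured 6.85, 6.83, 6.78, 6.53 and 6.09 in embryoid bodies and 9.15, 9.27, 8.79 and 9.01 in ESCs by 1433557_at. No embryoid body array came near the lowest ESC array, and the fall was 5.43-fold (interval 4.17 to 7.08, adjusted P = 8.0e-06). Cbx2, with a chromodomain and a region that compacts chromatin, measured 8.36, 8.63, 8.54, 9.01 and 8.66 in embryoid bodies and 7.06, 6.59, 6.99 and 6.95 in ESCs by 1434116_at. It was higher on every embryoid body array, by 3.35-fold (2.69 to 4.16, adjusted P = 1.9e-05).

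Each of these Cbx results rests on a single probe set. Cbx7 has 2 more, 1420039_s_at at 6.05 to 6.10 in embryoid bodies and 6.10 to 6.34 in ESCs, and 1449713_at at 4.42 to 4.49 in embryoid bodies and 4.49 to 4.65 in ESCs. Neither was called (-0.09, adjusted P = 0.222, and -0.07, adjusted P = 0.168), and both carry the same sequence accession in the annotation. The second Cbx2 probe set, 1422059_at, lay under the floor at 2.30 to 2.46 in embryoid bodies and 2.37 to 2.39 in ESCs. With all probe sets of a gene averaged, the differences were -0.87 for Cbx7 and 0.87 for Cbx2, each still called.

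Bmi1 (Pcgf4), the Pcgf subunit known for repressing the Cdkn2a locus, showed the largest rise among the 10 genes. It measured 8.15, 8.34, 8.19, 9.12 and 8.99 in embryoid bodies and 5.97, 6.25, 6.31 and 6.62 in ESCs by 1417493_at, higher by 4.83-fold (3.34 to 6.97, adjusted P = 9.4e-05). Its second probe set, 1448733_at, read 4.80 to 5.92 in embryoid bodies and 2.75 to 3.17 in ESCs, under the floor on every ESC array. Only a bound can be given, at least 2.42-fold higher against log2 4. The limma adjusted P of 5.2e-05 belongs to the measured values and does not test this bound. Embryoid body arrays 7 and 9 read higher than arrays 1, 3 and 5 on both probe sets, and the same arrays read lowest for Cbx7. Within arrays numbered 1 to 6 the Bmi1 difference was 2.12, and within those numbered 7 to 10 it was 2.59.

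Rnf2, the E3 ligase of PRC1, changed little. Its brightest probe set, 1424873_at, measured 10.26, 10.33, 10.37, 10.51 and 10.49 in embryoid bodies and 10.21, 10.24, 10.05 and 10.001 in ESCs, higher by 1.20-fold (1.07 to 1.35, adjusted P = 0.028). The gap between the closest arrays of the groups was small beside the spread within each. The call was lost without embryoid body array 5 or 7 or ESC array 8 or 10 (adjusted P of 0.052 to 0.076), within arrays numbered 1 to 6 (difference 0.10, adjusted P = 0.239) and with its probe sets averaged (0.06, adjusted P = 0.255), and within arrays numbered 7 to 10 the difference was 0.48. Probe set 1451519_at gave 0.19 (interval -0.03 to 0.40, adjusted P = 0.13), and the other 3 of Rnf2 lay under the floor.

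The other genes of PRC2 showed no common direction. Of 8 such genes 1 was called higher and 2 lower, with a median difference of 0.03. Rbbp4 and Rbbp7, the histone-binding chaperones of the core complex, differed by 0.09 (interval 0.02 to 0.15, adjusted P = 0.059, although the Rbbp4 probe set 1454791_a_at was called higher, by 0.41) and 0.08 (-0.01 to 0.17, adjusted P = 0.143), and the cofactor Aebp2 by -0.01 (-0.14 to 0.11, adjusted P = 0.836). Epop, a cofactor of the Polycomb-like form of PRC2 that also binds elongin, fell to 7.94 to 8.14 in embryoid bodies, against 9.84 to 10.59 in ESCs (-2.20, adjusted P = 7.5e-06). Lcor, whose locus also gives the PRC2-associated protein PALI1, rose to 8.02 to 8.78 in embryoid bodies, against 5.72 to 6.44 in ESCs (2.44, adjusted P = 1.9e-05), and the annotation does not tell which product was measured. Ezhip, an inhibitor of PRC2, was lower by -0.38 (adjusted P = 0.021), a call lost without embryoid body array 1 or 7 or ESC array 6, 8 or 10 (adjusted P up to 0.061).

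Among 9 further genes of canonical PRC1, 2 were called higher and 3 lower (median 0.05). These were 22.2% and 33.3%, against 15.7% and 14.7% of all genes. Cbx6, another chromodomain protein of PRC1, measured 7.28 to 7.51 in embryoid bodies and 7.90 to 8.57 in ESCs, lower by 1.78-fold (adjusted P = 0.0011). Cbx8 lay under the floor on all arrays, at 3.36 to 3.68 in embryoid bodies and 3.11 to 3.49 in ESCs (0.13, adjusted P = 0.269). Of the polyhomeotic subunits, which polymerize PRC1, Phc1 measured 9.98, 10.05, 9.80, 9.84 and 9.58 in embryoid bodies and 11.86, 11.90, 11.56 and 11.54 in ESCs, a fall of 3.64-fold (adjusted P = 3.7e-06). Phc2 measured 10.41, 10.61, 10.45, 10.69 and 10.59 in embryoid bodies and 8.27, 8.20, 9.07 and 8.49 in ESCs, a rise of 4.12-fold (adjusted P = 2.0e-05). Phc3 rose by 2.04-fold (adjusted P = 0.0061). Arrays of the groups were apart for all 3, which were named because they were called. Among all genes, embryoid body arrays were all above in 15.6% and all below in 19.4%.

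Pcgf2 (Mel18), the closest paralog of Bmi1, measured 6.56, 6.46, 6.47, 6.66 and 6.66 in embryoid bodies and 6.69, 7.02, 7.42 and 7.30 in ESCs (-0.54, adjusted P = 0.020). The lowest ESC array lay just above the highest embryoid body array, and without ESC array 10 the call was lost (adjusted P = 0.059). Ring1, the paralog of Rnf2, stayed near the floor at a mean of 4.14 in embryoid bodies and 4.10 in ESCs (0.05, interval -0.06 to 0.15, adjusted P = 0.426).

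**Figure D3:**
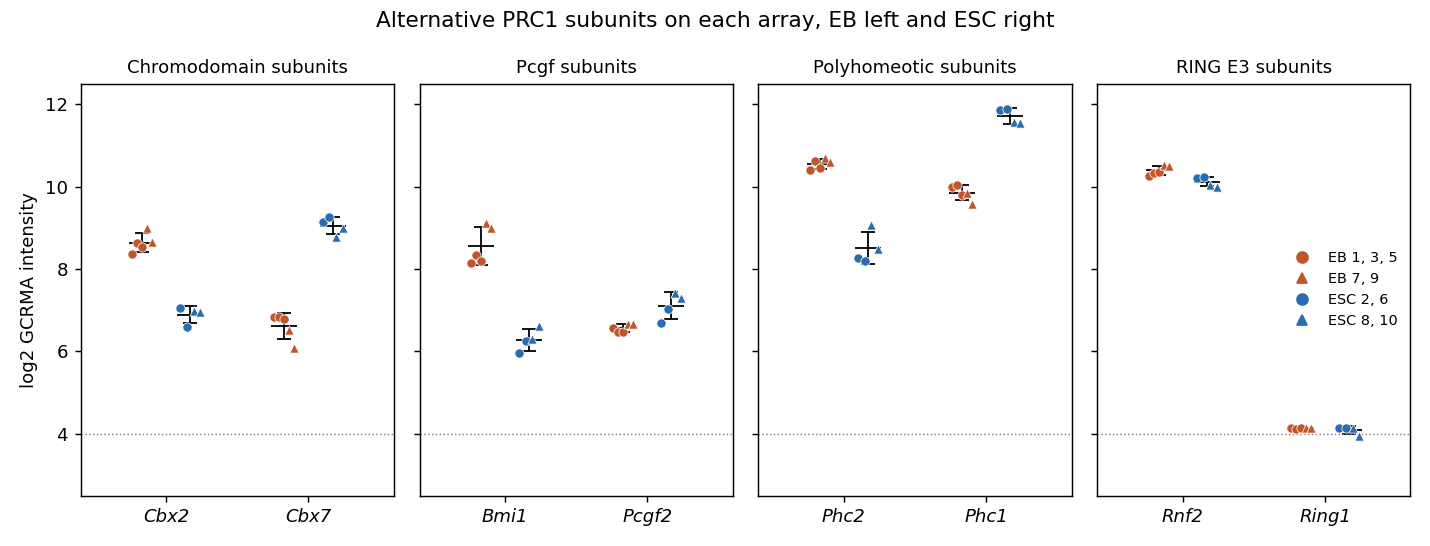
Log2 GCRMA intensity (vertical axis) of pairs of alternative PRC1 subunits on each array, embryoid bodies (EB) left and ESCs right of each gene. Symbols are as in the plot of members by array, with mean and SD as black bars. The pairs were picked by hand, and other paralogs such as Phc3, which rose, and Cbx6, which fell, are not drawn. Cbx2, Bmi1 and Phc2 lie higher in embryoid bodies and Cbx7, Pcgf2 and Phc1 lower, while Ring1 lies near the dotted floor of log2 4.

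Variant PRC1 complexes hold Rybp or Yaf2 in place of a Cbx protein. Of 13 genes measured here, without Rybp, 4 were called higher and 4 lower, with a median of -0.11. Each share was 30.8%, against 15.7% higher and 14.7% lower among all genes. Genes of the complex around Pcgf6 were among those called in both directions: L3mbtl2, an MBT-domain protein, fell by 1.62 on the log2 scale (adjusted P = 1.8e-06), Pcgf6 by 1.13 (adjusted P = 3.2e-07) and the DNA-binding Mga by 0.53 (adjusted P = 0.010), while the repressor E2f6 rose by 0.80 (adjusted P = 2.4e-04). Usp7, a deubiquitinase found with Pcgf1 complexes, fell by 0.93 (adjusted P = 1.1e-06). Yaf2 rose by 1.44 (adjusted P = 1.6e-06) and Auts2, a cofactor of complexes with Pcgf3 and Pcgf5, by 1.79 (adjusted P = 1.1e-05). Arrays of the groups did not overlap for any of these 7 by the probe set that represents them. They were named because they were called, or for Mga after its value was seen, so this adds no separate support. Over all genes, embryoid body arrays lay all above in 15.6% and all below in 19.4%. Another Auts2 probe set, 1438680_at, was called higher by 1.32 (limma adjusted P = 3.9e-04), while 1452379_at was not called (-0.02, adjusted P = 0.717).

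Of 10 genes for enzymes that counteract Polycomb and for their partners, 4 were called higher and 2 lower (median -0.02). These were 40% and 20%, against 15.7% and 14.7% of all genes. With 1 array left out 2 to 4 were called higher. Kmt2d, a trithorax-type methyltransferase whose groups overlapped, was higher by 0.23 (adjusted P = 0.028) and lost its call without embryoid body array 1, 3 or 5 or ESC array 2, 6 or 8 (adjusted P up to 0.078). Kdm6b, an H3 demethylase that removes the PRC2 mark, measured 9.25, 9.33, 9.35, 9.50 and 9.48 in embryoid bodies and 7.82, 7.26, 8.17 and 7.95 in ESCs, higher by 2.99-fold (adjusted P = 8.7e-05). Its X-linked relative Kdm6a was lower by 1.42-fold (adjusted P = 0.0012), as was the trithorax methyltransferase Kmt2b by 1.34-fold (adjusted P = 0.0013). Bap1, the deubiquitinase that removes the PRC1 mark, was higher by 1.22-fold (adjusted P = 0.0060) and its partner Asxl3 by 1.70-fold (adjusted P = 0.023), a call of Asxl3 that was lost without embryoid body array 1 (adjusted P = 0.052). A second Bap1 probe set, 1426354_at, differed by 0.07 and was not called (limma adjusted P = 0.323). Asxl1 and Asxl2, paralogs of Asxl3, were not called by the probe set that represents them, yet each had another that was called lower, 1435077_at of Asxl1 by -0.81 and 1439063_at of Asxl2 by at least 7.52-fold, as all embryoid body arrays were under the floor.

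**Figure D4:**
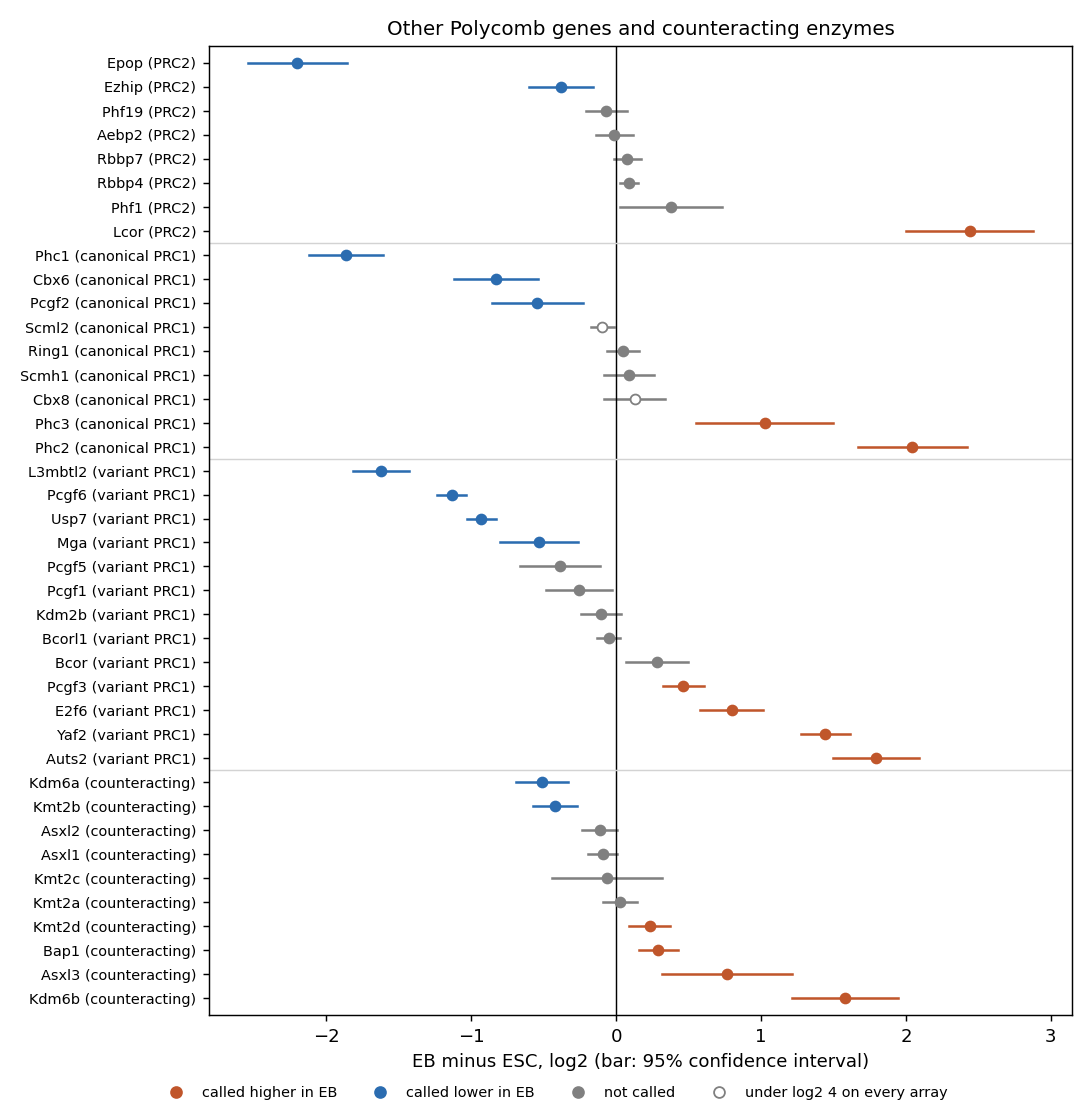
EB minus ESC difference on the log2 scale (horizontal axis) with its 95% confidence interval for 40 genes (rows) of PRC2, canonical PRC1, variant PRC1 and counteracting enzymes with their partners. Colours are as in the plot of the 34 probe sets. Lcor, Phc2, Auts2 and Kdm6b stand highest and Epop, Phc1, L3mbtl2 and Kdm6a lowest in their groups.

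Developmental regulators described as Polycomb targets in ESCs rose in part. Gata4, Gata6, Hand1 and Sox17 among them were also counted with the markers of differentiated lineages above, so these lists are not separate results. Of 19 targets measured 6 were called higher (31.6%, against 15.7% of all genes) and 1 lower (5.26%, against 14.7%). The median was 0.27, and 6 lay under the floor on every array. These counts use 1 probe set per gene, and 3 of the genes not called had another probe set called higher: Hand1 with 1417525_at (0.64, adjusted P = 0.033), Isl1 with 1450723_at and Sox17 with 1429177_x_at. The ESC arrays were all under the floor for Isl1 and Sox17, which were at least 17.0-fold and 1.70-fold higher against log2 4. Foxa2, a regulator of endoderm, averaged 8.39 ± 0.36 in embryoid bodies and 2.75 ± 0.69 in ESCs (SD, n = 5 and 4). It was under the floor on every ESC array and at least 21.0-fold higher against log2 4. The limma adjusted P of 2.5e-06 belongs to the measured values and not to this bound. Gata6 and Gata4, of endoderm and heart, rose by 3.08 (adjusted P = 2.1e-06) and 2.02 (adjusted P = 9.4e-06). Pax6, of eye and neural tube, was lower by -1.09 (adjusted P = 0.036), a call lost without embryoid body array 1, 3, 5 or 7 or ESC array 8 (adjusted P up to 0.084). Cdkn2a, the locus under Bmi1 in many cell types, differed by 0.27 (interval 0.03 to 0.51, adjusted P = 0.082).

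Genes of DNA replication and mitosis moved in the direction of the fallen PRC2 members. Of 15 such genes 12 were lower (80%, against 14.7% of all genes) and none higher in embryoid bodies. Their median was -0.49 against -0.04 over all genes. The summed intensity of the 15 ran from 35556 to 37320 in embryoid bodies and from 48706 to 52051 in ESCs. Ccna2 fell by 0.95 (adjusted P = 2.4e-06), Bub1 by 0.95 (adjusted P = 3.4e-04) and Mcm2 by 0.90 (adjusted P = 3.0e-07), while Mki67, a marker of cycling cells, differed by -0.02 (adjusted P = 0.823). Eed, Suz12, Jarid2 and Mtf2 stood at -1.39, -1.19, -1.29 and -1.22 beside these, or at -0.71 for Eed and -0.83 for Suz12 with all their probe sets averaged. Whether they differ from the cell cycle genes, and the part of cell division or of cell type composition in them, was not tested.

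By the probe set that represents each gene, all calls of members but that of Rnf2 held within either run of array numbers, and of all member probe sets 13 were called lower in arrays 1 to 6 and 12 in arrays 7 to 10. Within arrays numbered 1 to 6 the differences of Eed, Suz12, Jarid2 and Mtf2 were -1.31, -1.19, -1.19 and -1.18, and within those numbered 7 to 10 they were -1.48, -1.16, -1.44 and -1.27. Those of Cbx7 were -2.40 and -2.59, and those of Cbx2 1.69 and 1.86. The labels do not say whether the numbers mark a batch.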

How the data were processed

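RNA of 5 embryoid body and 4 ESC samples was hybridized to 9 arrays. The values that the authors deposited are linear GCRMA intensities, 1 per probe set, a method that models background from probe sequence; whether all 9 arrays were processed together is not given in the sources used here. The log2 of each value was taken with no further normalization. Of 45101 probe sets 64 controls were left out, and of the other 45037, 34945 had 1 gene symbol in the array's annotation, 932 several and 9160 none. Precision is limited by the number of arrays.

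Groups were compared over all probe sets with limma 3.58.1 in R 4.3.3 (eBayes with trend and robust, two-sided, Benjamini-Hochberg, called at an adjusted P under 0.05), which was tested on simulated data. Differences are embryoid bodies minus ESCs on the log2 scale, with 95% confidence intervals that are not adjusted. A gene was represented by its probe set with the highest mean over the 9 arrays. The members and lists were chosen with earlier results of these data known. Named genes were all members, the Cbx genes and up to 3 rising and 3 falling called genes of each list. Marker genes, Mki67, Kmt2d, Asxl1, Asxl2, Isl1, Hand1, Sox17, Ring1, Rbbp4, Rbbp7, Aebp2, Mga and Cdkn2a were named outside this rule, after their values were seen. Lists were described by counts and medians. Where a called probe set was under log2 4 on every array of a group, the fold is a bound, the other group's mean log2 value against log2 4. The adjusted P of such a probe set is for the measured difference and does not test the bound. Promoters came from a RefSeq table of 32851 windows.

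Alternatives were quantile normalization, centring on the median, an offset of 16 before the log, a filter at log2 4, no trend or robust step, array weights, each array left out, arrays 1 to 6 or 7 to 10 alone or as a block, a difference of at least 1, the plain probe set of highest ESC mean and the mean over probe sets.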

Additional observations from a re-analysis of the deposited data

Results flagged for a closer look

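In 10 of 122 combinations of a probe set and a group examined, a single array stood apart from the others of its group by Dixon's gap test at the 95% level. Of these 4 lay under the floor of log2 4. The usual rate of about 1 in 20 holds for independent normal values. Some values here repeat across arrays, as for Cbx8 on ESC arrays 6, 8 and 10, so the 10 cannot be set against that rate.

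Among the members, Cbx7 read 6.34 on ESC array 2 by 1420039_s_at against 6.10 to 6.12 on the other ESC arrays, and 4.65 on ESC array 6 by 1449713_at against 4.49 to 4.52. Ezh1 read 2.90 on embryoid body array 1 by 1429629_at (others 3.08 to 3.12) and 3.04 on ESC array 2 by 1449023_a_at (others 2.74 to 2.76). Rnf2 read 3.18 on ESC array 10 by 1448041_at (others 3.03 to 3.05). None of these probe sets carried a call.

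Among the other genes, ESC array 2 read 5.31 for Phc3 (others 5.91 to 5.94), 5.92 for Gata4 (others 5.72 to 5.75) and 3.11 for Cbx8 (others 3.49). Embryoid body array 9 read 5.93 for Asxl3 (others 5.38 to 5.51), and array 3 read 8.14 for Epop (others 7.94 to 7.98).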

How the results depend on the processing

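Under the 20 alternatives run on each, Eed, Suz12, Jarid2, Mtf2, Bmi1, Cbx2 and Cbx7 kept their direction and an adjusted P (limma) of at most 0.0043. With 1 value per gene, Ezh2 and, under its 19 alternatives, Ezh1 were never called. The Ezh1 probe set 1429630_at, under the floor on every array, was called lower without embryoid body array 9 (limma adjusted P = 0.030). The sizes of Eed, Cbx2 and Cbx7 depended most on the choice of probe set, at -0.71, 0.87 and -0.87 with the mean over probe sets, which includes those without a call. Rnf2 ran from 0.06 to 0.48 and lost its call in 6 of 20. Member genes called lower stayed at 5, those called higher were 2 or 3, member probe sets called higher were 3 or 4, and those called lower 12 to 19, against 13 as reported. Over all probe sets, those called lower numbered 4778 as reported, 7272 with arrays centred on the median, 12834 with array weights, 3122 in arrays numbered 7 to 10 only, and 4088 to 12735 with 1 array left out, the highest without embryoid body array 9, where 18 member probe sets were called lower. The member probe sets gained without that array, of Eed, Ezh1, Mtf2 and Rnf2, all lay under the floor on every array. The cause of these shifts in number was not tested. Requiring a difference of at least 1 left 1736 higher and 1104 lower. Values under log2 4 have no usable difference.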
